A study of Mus musculus with 6 samples.

Results

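The 9 genes described here bear on how kidney epithelium takes up or moves proteins. Pigr, Fcgrt and Jchain belong to immunoglobulin transport, where Jchain encodes a part of the cargo. The others are the uptake receptor genes Lrp2, Cubn and Amn, and the genes Dab2, Clcn5 and Lrpap1, whose products serve those receptors. The 9 genes were picked by name from the 54532 named genes of the count table as genes of tubular endocytosis and immunoglobulin transport. The set was chosen because Pigr was higher in the knockout columns. All 9 were among the 15225 genes that passed the expression filter. The comparison is between mouse kidneys labelled Lpar3-/-, described as lacking lysophosphatidic acid receptor 3, and wild-type (WT) kidneys, with 3 RNA sequencing libraries in each group. All of these mice had spent 12 h in a normobaric chamber at 8% oxygen. Genotypes are therefore compared under hypoxia alone, and no normoxic kidney was analysed here. The sources used here give no strain, sex, age or altered allele, and do not say whether each library came from its own animal. The p-values therefore reflect spread among libraries, which may be technical.

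The proximal tubule recovers nearly all protein that passes the glomerular filter. Megalin and cubilin, 2 very large receptors of the brush border, bind filtered albumin, vitamin carriers, hormones and antibody light chains, and the cargo is carried through acidified endosomes to lysosomes. Dimeric immunoglobulin A (IgA), in contrast, is made by plasma cells, joined by J chain, and carried across epithelial cells by the polymeric immunoglobulin receptor, part of which leaves with it as secretory component.

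The libraries held between 15953794 and 17940438 counts in named genes. Kidney markers were abundant in each of the 6 libraries: the proximal tubule gene Slc34a1 lay between 529 and 600 FPKM (fragments scaled by gene length and library size), the thick ascending limb gene Umod between 796 and 960 FPKM and the collecting duct gene Aqp2 between 297 and 398 FPKM. Lpar3 itself did not set the groups apart, with 672, 592 and 580 counts in the libraries labelled Lpar3-/- and 645, 634 and 577 counts in the WT libraries, so each direction below rests on the labels. Levels of 1 gene are given in CPM, counts scaled to a common library size by TMM, an edgeR normalization, and levels are compared between genes in FPKM. Differences are log2 fold changes of the libraries labelled Lpar3-/- over WT from edgeR's quasi-likelihood test across all genes, and a gene is called at a Benjamini-Hochberg adjusted p under 0.05. Of the genes tested, 57 (0.374%) were called, 19 higher (0.125%) and 38 lower (0.25%), and 1398 (9.18%) had an unadjusted p under 0.05.

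Pigr was the one gene of the set that stood higher in every library labelled Lpar3-/- than in every WT library. It is the receptor that binds polymeric IgA and IgM at the basolateral side of an epithelial cell and releases them at the apical side. Its level was 1302, 1143 and 1311 CPM in the libraries labelled Lpar3-/-, against 762, 857 and 704 CPM in the WT libraries. Of all genes tested, 6.58% stood higher without overlap in this way and 7.12% lower. The lowest library labelled Lpar3-/- lay well above the highest WT library, and the spread within each group was smaller than the gap. Mean levels were 1252 ± 94.5 CPM in the libraries labelled Lpar3-/- and 774 ± 77.2 CPM in WT (SD, n = 3 each), a 1.62-fold difference (0.69 in log2, SE 0.090). These values are what the set was chosen for, so they stand as a description with no p. As the tissue is bulk kidney, more Pigr RNA per cell and more cells that express it cannot be told apart.

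**Figure D1:**
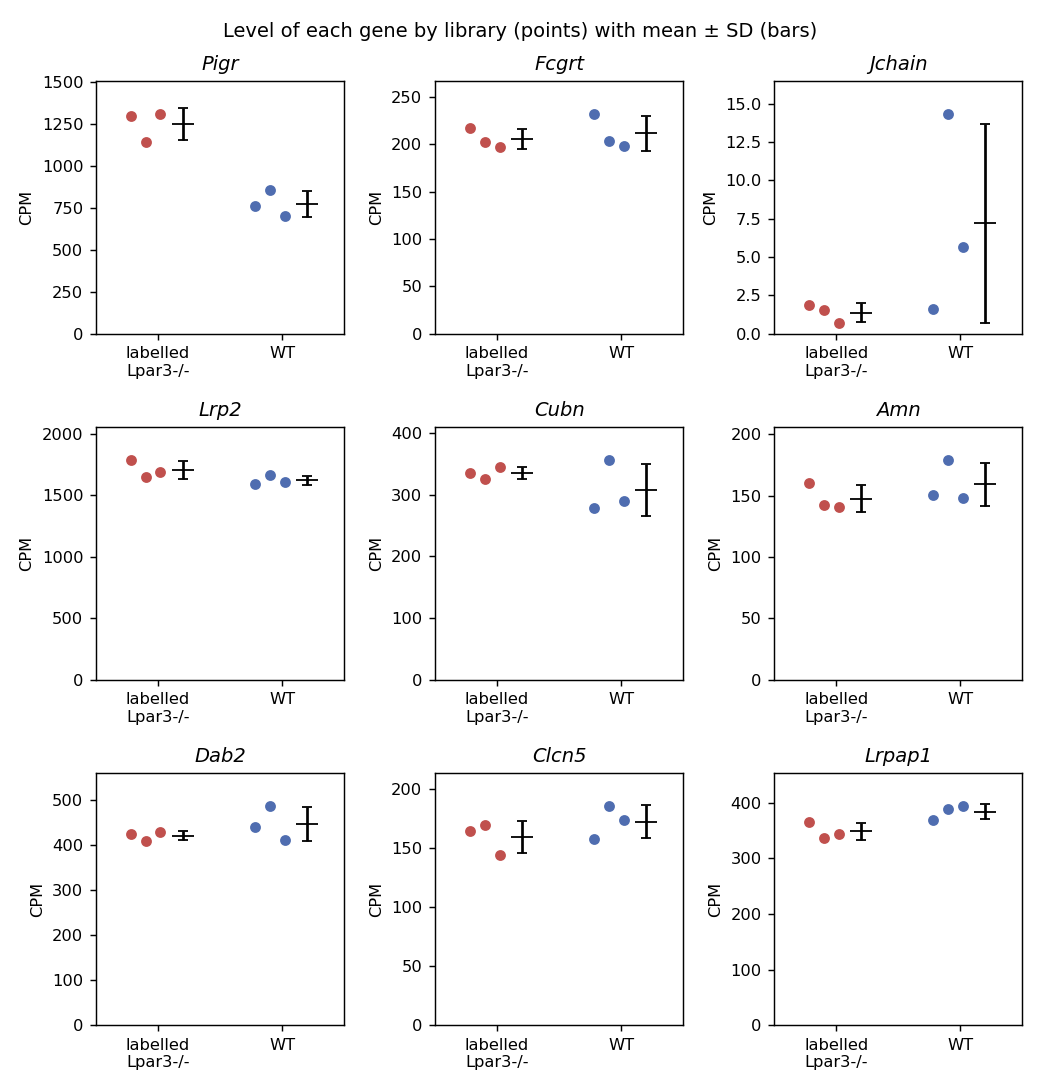
Level of each of the 9 genes in CPM (vertical axes, from 0) by library, with points for libraries and bars for the mean ± SD of 3 libraries, the group labelled Lpar3-/- left of WT. Pigr lies from 1143 to 1311 CPM in the libraries labelled Lpar3-/- and from 704 to 857 CPM in WT, and Jchain is high in 2 WT libraries, at 14.3 and 5.62 CPM.

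The Pigr gene (ENSMUSG00000026417) lies on GRCm38 chromosome 1, from 130826684 to 130852249 on the plus strand, with 13 merged exons of 4025 bases that overlap no exon of another gene in GENCODE M21. The 250 bases before its RefSeq start site are shown because Pigr is the member whose level differed, with those of Amn, the other member that holds the same palindromic motif, and of Fcamr, the neighbouring gene for an IgA and IgM receptor whose values ran the other way. Each runs 5′ to 3′ on the gene's strand in build GRCm38.p6, and capitals mark CACGTG, the E-box bound by upstream stimulatory factors.
Pigr, chr1:130826434-130826683, plus strand: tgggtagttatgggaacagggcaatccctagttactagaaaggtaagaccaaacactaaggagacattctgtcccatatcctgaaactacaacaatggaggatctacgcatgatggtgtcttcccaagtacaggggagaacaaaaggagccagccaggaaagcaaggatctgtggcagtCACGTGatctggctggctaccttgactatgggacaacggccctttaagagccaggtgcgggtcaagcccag
Amn, chr12:111270846-111271095, plus strand: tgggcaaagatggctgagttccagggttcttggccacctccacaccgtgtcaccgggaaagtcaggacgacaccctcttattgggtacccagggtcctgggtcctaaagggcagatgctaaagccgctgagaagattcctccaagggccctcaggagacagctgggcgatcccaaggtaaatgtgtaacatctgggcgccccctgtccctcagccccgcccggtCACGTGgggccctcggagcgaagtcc
Fcamr, chr1:130800652-130800901, plus strand: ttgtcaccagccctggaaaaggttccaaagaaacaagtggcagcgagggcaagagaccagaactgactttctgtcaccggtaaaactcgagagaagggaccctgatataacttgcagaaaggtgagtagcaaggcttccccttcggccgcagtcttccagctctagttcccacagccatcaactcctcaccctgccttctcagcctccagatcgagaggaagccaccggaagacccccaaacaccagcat

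The CACGTG of Pigr begins 71 bases before the start site and that of Amn 26 bases before it. These are 2 of the 11 windows of the same length that RefSeq gives for the 9 genes, where 6.02% of all 32851 windows hold the motif. The hypoxia response core ACGTG, searched on both strands, lies inside every CACGTG and was found in 4 of the 11 windows, those of Pigr, Amn, Jchain and the second start of Dab2, against 16.6% of all windows. TTCNNNGAA, a STAT element that reads alike on both strands, was found in the windows of Cubn and the first start of Dab2, against 7.02% of all windows. The interferon-stimulated response element was searched on both strands and found in 0 of the 11, against 2.98% of all windows. A match describes letters and no binding.

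None of the tested genes around Pigr was called. Within 500 kb of its midpoint lay 11 of them, 7 with a negative and 4 with a positive fold change, of which edgeR, DESeq2 and limma-voom each called 0. At an unadjusted p under 0.05 stood 3, namely Fcamr, Gm15848 and Mapkapk2, against 9.18% of all genes tested. Fcamr, whose product binds IgA and IgM as Pigr's does, had 45.3, 43.8 and 46.4 CPM in the libraries labelled Lpar3-/-, against 69.4, 55.9 and 49.2 CPM in WT. Those groups did not overlap, but the difference, -0.36 in log2 (SE 0.11), did not pass (edgeR adjusted p = 0.270). The antisense transcript gene Gm15848, which runs on the other strand across the end of Fcamr without sharing exon bases with it, stood at -0.33 in log2 (SE 0.11) and the kinase gene Mapkapk2 at -0.18 (SE 0.070). Groups did not overlap for 5 of the 11, against 13.7% of all genes tested.

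**Figure D2:**
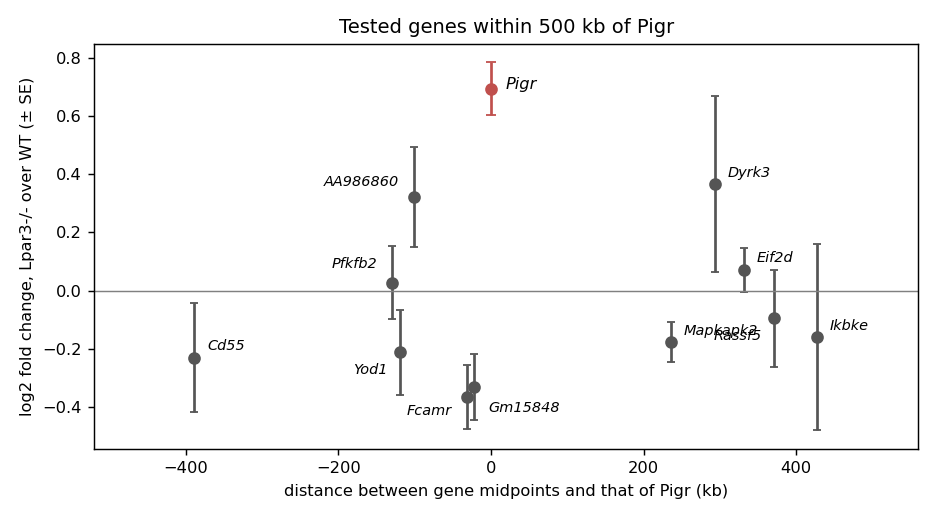
Log2 fold change of the libraries labelled Lpar3-/- over WT (vertical axis, bars ± SE) against the distance of a gene's midpoint from that of Pigr in kb (horizontal axis), for Pigr and the 11 other genes tested within 500 kb. Pigr lies at 0.69 and its close neighbours Fcamr and Gm15848 at -0.36 and -0.33.

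Members, genes with predicted or clone names and genes with a mean CPM under 1 were left out of a ranking by likeness to Pigr. The 5 remaining genes whose centred log2 CPM lay nearest to that of Pigr over the 6 libraries were Methig1, Zfp72, Uroc1, Rdh16f2 and Ugt2b34. Their root mean square differences were 0.071, 0.084, 0.090, 0.12 and 0.13 on the log2 scale. Uroc1 encodes urocanase, an enzyme of histidine breakdown, and had 59.1 ± 1.75 CPM in the libraries labelled Lpar3-/- and 38.6 ± 1.21 CPM in WT (SD, n = 3 each). Rdh16f2, of a retinol dehydrogenase family, had 147 ± 16.2 CPM in the libraries labelled Lpar3-/- and 106 ± 12.7 CPM in WT. Ugt2b34, a glucuronosyltransferase gene, had 28.1 ± 3.93 CPM in the libraries labelled Lpar3-/- and 19.8 ± 0.987 CPM in WT. Methig1 averaged 1.55 CPM in the libraries labelled Lpar3-/- and 0.997 CPM in WT, and shares exons with Higd1c and Mettl7a2, so its counts are uncertain. These genes were picked for the likeness, which is given with no test.

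Among 20 genes listed as regulators of Pigr transcription, 1 rose, 0 fell and 19 did not pass, where edgeR called 0.374% of all genes tested. At an unadjusted p under 0.05 stood 4, against 9.18% of all genes tested. The median log2 fold change was -0.092, where all genes tested had -0.0036. This list was chosen with earlier results of these data known, and a link of its genes to the level of Pigr was not tested. The gene that rose was Prlr, the prolactin receptor, with 66.3 ± 9.96 CPM in the libraries labelled Lpar3-/- and 18.4 ± 2.60 CPM in WT (edgeR adjusted p = 2.76e-05), and an exon of it overlaps one of Gm21973. The NF-kB subunit gene Relb had 5.91 ± 0.652 CPM in the libraries labelled Lpar3-/- and 9.46 ± 1.69 CPM in WT, a log2 fold change of -0.68 that did not pass (edgeR adjusted p = 0.165). Il17ra, an interleukin 17 receptor, stood at -0.24 in log2 (SE 0.076) and did not pass.

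Machinery that moves vesicles towards the apical side was listed in 14 genes. Of these, edgeR, DESeq2 and limma-voom each called 0, where edgeR called 0.374% of all genes tested. An unadjusted p under 0.05 was reached by 1, against 9.18% of all genes tested. The median log2 difference was 0.079, where all genes tested had -0.0036, and 13 were positive. Their summed level was 1015 to 1056 CPM in the libraries labelled Lpar3-/- and 972 to 999 CPM in WT. Of the 17 lists, 2 had summed levels that stood higher without overlap, 1 lower, and 14 overlapped. A link of these genes to the level of Pigr was not tested. The gene with the lowest p, Ap1m2, which encodes the epithelial clathrin adaptor subunit, had 18.3, 27.3 and 25.1 CPM in the libraries labelled Lpar3-/-, against 17.6, 17.3 and 17.7 CPM in WT.

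Markers of the thick ascending limb ran in the direction of Pigr. Of the 8 listed, 7 were positive (median log2 difference 0.27), and their summed level was 6224 to 6505 CPM in the libraries labelled Lpar3-/- and 5012 to 5681 CPM in WT. An unadjusted p under 0.05 was reached by 6 of the 8, against 9.18% of all genes tested. The groups did not overlap for 6, against 13.7% of all genes tested. The phosphatase inhibitor gene Ppp1r1a rose, with 139 ± 2.09 CPM in the libraries labelled Lpar3-/- and 102 ± 6.06 CPM in WT (edgeR adjusted p = 0.0136). That call was lost without replicate 1, 2 or 3 labelled Lpar3-/- (edgeR adjusted p = 0.0799, 0.0969 and 0.111), and with limma on log2(FPKM + 1) (adjusted p = 0.135) and log2(FPKM + 0.1) (adjusted p = 0.102). The sodium, potassium and chloride transporter gene Slc12a1 had 1429 ± 64.1 CPM in the libraries labelled Lpar3-/- and 1087 ± 74.1 CPM in WT and did not pass with edgeR (adjusted p = 0.0613), but did with DESeq2 and limma-voom and with the replicate block (edgeR adjusted p = 0.0492). Egf, the epidermal growth factor gene, had 1686 ± 31.7 CPM in the libraries labelled Lpar3-/- and 1376 ± 114 CPM in WT, and was called by DESeq2 but not by edgeR (adjusted p = 0.195). The summed levels of 14 proximal tubule markers overlapped, at 18896 to 20032 CPM in the libraries labelled Lpar3-/- and 18909 to 20741 CPM in WT, as did those of 10 collecting duct markers, at 1041 to 1126 CPM in the libraries labelled Lpar3-/- and 1024 to 1046 CPM in WT, and those of 6 podocyte markers, at 393 to 417 CPM in the libraries labelled Lpar3-/- and 362 to 430 CPM in WT. Of these 3 lists edgeR and limma-voom called 0 over all libraries, and DESeq2 called the proximal tubule gene Slc5a12. Without WT replicate 1, edgeR called the proximal tubule genes Slc22a30 and Slc7a13, at -0.57 and -0.38 in log2 (adjusted p = 0.0107 and 0.0378). Without WT replicate 2 it called Slc5a12, at 0.48 (adjusted p = 0.0243). An unadjusted p under 0.05 was reached by 5 proximal tubule, 0 collecting duct and 1 podocyte genes, against 9.18% of all genes tested. The groups did not overlap for 3, 1 and 1 of them, against 13.7% of all genes tested. Of the proximal tubule list, 6 genes were positive and 8 negative. The proximal tubule marker Slc5a2 had 270 ± 36.4 CPM in the libraries labelled Lpar3-/- and 333 ± 12.4 CPM in WT, without overlap, and did not pass (edgeR adjusted p = 0.287). The part of these markers in the difference of Pigr was not tested.

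Fcgrt, the neonatal Fc receptor that protects IgG and albumin from breakdown, differed little between the groups. It had 217, 202 and 197 CPM in the libraries labelled Lpar3-/-, against 232, 204 and 198 CPM in WT, with overlapping groups. In log2 the difference came to -0.041 (SE 0.079, 95% interval -0.21 to 0.13, edgeR adjusted p = 0.931). Its light chain is encoded by B2m, which had 187, 216 and 220 CPM in the libraries labelled Lpar3-/-, against 279, 383 and 208 CPM in WT. WT replicate 2 was the highest, the groups overlapped, and the log2 fold change of -0.48 (SE 0.17) did not pass (edgeR adjusted p = 0.364). Of the 8 tested genes of Fc receptors and antibody binding, edgeR, DESeq2 and limma-voom each called 0. B2m and Fcamr alone reached an unadjusted p under 0.05, against 9.18% of all genes tested, and 7 of the 8 were negative.

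Jchain, the joining chain of polymeric IgA and IgM that Pigr binds, was scarce and uneven. It had 33, 25 and 12 counts in the libraries labelled Lpar3-/-, against 29, 242 and 93 counts in WT, which is 1.88, 1.57 and 0.694 CPM in the libraries labelled Lpar3-/-, against 1.64, 14.3 and 5.62 CPM in WT. WT replicates 2 and 3 were high, while WT replicate 1 was no higher than replicate 1 labelled Lpar3-/-. The mean was 1.38 ± 0.616 CPM in the libraries labelled Lpar3-/- and 7.19 ± 6.48 CPM in WT (SD, n = 3 each), and the difference, -2.37 in log2 (SE 0.63), did not pass (edgeR adjusted p = 0.191). It passed without WT replicate 1 (edgeR, log2 fold change -2.85, adjusted p = 0.00832) and stood at -1.38 (adjusted p = 0.376) without WT replicate 2.

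The antibody chain genes Igha and Igkc were high in the same 2 WT libraries as Jchain. Igha, the IgA heavy chain, had 4.56, 4.60 and 2.54 CPM in the libraries labelled Lpar3-/-, against 5.31, 41.6 and 17.8 CPM in WT. Igkc, the kappa light chain, had 3.59, 5.04 and 3.64 CPM in the libraries labelled Lpar3-/-, against 4.29, 27.6 and 9.43 CPM in WT. In WT replicate 2 Jchain was 8.75-fold, Igha 7.84-fold and Igkc 6.43-fold above WT replicate 1. Across the 6 libraries Jchain counts stood at 0.27 to 0.41 of Igha counts, and Igkc counts at 0.53 to 1.43 of them. The groups did not overlap for Igha and overlapped for Igkc. With the default filter neither heavy nor light chain passed over all libraries, with log2 fold changes of -2.47 (SE 0.56, edgeR adjusted p = 0.10) and -1.75 (SE 0.51, edgeR adjusted p = 0.259). Without WT replicate 1 both did, at -2.93 and -2.18 (edgeR adjusted p = 0.00200 and 0.0147), and without WT replicate 2 they stood at -1.56 and -0.74. With no filter on low counts Jchain, Igha and Igkc passed over all 6 libraries (edgeR adjusted p = 1.74e-18, 1.26e-52 and 5.00e-21). That setting called 520 genes in all, against 57 with the default filter, so these p-values are not read as measuring the spread among libraries. With the strict filter the same genes did not pass (edgeR adjusted p = 0.201, 0.112 and 0.278).

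**Figure D3:**
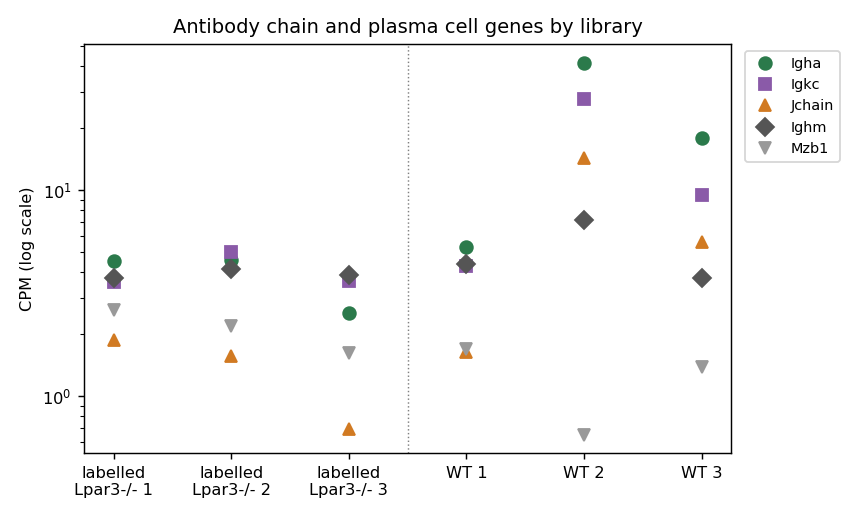
Level in CPM on a log axis of Igha, Igkc, Jchain, Ighm and Mzb1 in each library (horizontal axis), the libraries labelled Lpar3-/- left of the dotted line and WT right of it. Igha, Igkc and Jchain peak together in WT replicate 2, at 41.6, 27.6 and 14.3 CPM, and Mzb1 is lowest there, at 0.651 CPM.

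Other markers of B and plasma cells did not follow Igha and Igkc throughout. Ighm, the IgM heavy chain, had 3.76, 4.16 and 3.87 CPM in the libraries labelled Lpar3-/-, against 4.40, 7.16 and 3.75 CPM in WT. Mzb1, a chaperone of antibody assembly, had 2.62, 2.20 and 1.62 CPM in the libraries labelled Lpar3-/-, against 1.69, 0.651 and 1.39 CPM in WT, but an exon of it overlaps one of another annotated gene. Irf4, a plasma cell transcription factor, had 4, 1 and 1 counts in the libraries labelled Lpar3-/-, against 7, 27 and 6 counts in WT, and was not tested. The B cell genes Cd79a and Ms4a1 had at most 7 and 5 counts in each library. Of 19 listed genes 7 were tested and edgeR, DESeq2 and limma-voom each called 0. Igha and Igkc reached an unadjusted p under 0.05, against 9.18% of all genes tested. The list's summed level was 17.2 to 21.5 CPM in the libraries labelled Lpar3-/- and 20.4 to 85.7 CPM in WT. The part of plasma cell number in the values of Jchain was not tested.

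The uptake receptors differed little between the groups. Lrp2 encodes megalin and had the highest count of the 9 genes in each library, with 1789, 1648 and 1688 CPM in the libraries labelled Lpar3-/-, against 1590, 1661 and 1610 CPM in WT. The groups overlapped, through replicate 2 of each, and the log2 difference came to 0.076 (SE 0.071, 95% interval -0.079 to 0.23, edgeR adjusted p = 0.827). Cubn encodes cubilin, which has no membrane anchor of its own, and had 335, 326 and 346 CPM in the libraries labelled Lpar3-/-, against 278, 357 and 290 CPM in WT. WT replicate 2 was above the libraries labelled Lpar3-/- and the other two WT libraries were below them, and the log2 difference came to 0.12 (SE 0.093, 95% interval -0.080 to 0.33, edgeR adjusted p = 0.771). An exon of Cubn overlaps one of Gm13270 on the other strand. Amn encodes amnionless, which anchors cubilin in the membrane, and had 160, 142 and 140 CPM in the libraries labelled Lpar3-/-, against 150, 179 and 148 CPM in WT. Its groups overlapped, with a log2 difference of -0.11 (SE 0.088, 95% interval -0.30 to 0.085, edgeR adjusted p = 0.791).

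Genes whose products serve these receptors had slightly negative fold changes that did not pass. Dab2, the clathrin adaptor that binds the tail of megalin, had 425, 409 and 428 CPM in the libraries labelled Lpar3-/-, against 440, 487 and 412 CPM in WT (log2 fold change -0.084, SE 0.078, edgeR adjusted p = 0.825). Clcn5, the endosomal chloride and proton exchanger whose loss causes Dent disease in humans, had 164, 170 and 144 CPM in the libraries labelled Lpar3-/-, against 158, 186 and 174 CPM in WT (log2 fold change -0.11, SE 0.085, edgeR adjusted p = 0.767). Both had overlapping groups and their highest level in WT replicate 2, and an exon of Dab2 overlaps the pseudogene Gm18888. Lrpap1 encodes the receptor-associated protein, a chaperone that keeps ligands off megalin in the endoplasmic reticulum, and had 366, 337 and 344 CPM in the libraries labelled Lpar3-/-, against 369, 388 and 395 CPM in WT. Its groups were apart by a small step, at 366 CPM in the highest library labelled Lpar3-/- and 369 CPM in the lowest WT library, and the log2 fold change of -0.14 (SE 0.070, 95% interval -0.29 to 0.015) did not pass (edgeR adjusted p = 0.602).

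The genes lie apart in the genome (GRCm38). Lrp2 spans 69424340 to 69586065 and Cubn 13276338 to 13491813 on the minus strand of chromosome 2, with 80 and 66 merged exons. On the plus strand, Amn spans 111271095 to 111276426 of chromosome 12 and Dab2 6299788 to 6440712 of chromosome 15. On the minus strand, Lrpap1 spans 35091501 to 35105766 and Jchain 88519809 to 88527891 of chromosome 5, Fcgrt 45092990 to 45103851 of chromosome 7, and Clcn5 7153810 to 7319358 of chromosome X.

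Of the 8 genes other than Pigr, edgeR called 0, DESeq2 0 and limma-voom 0, where edgeR called 0.374% of all genes tested, and 1, Jchain, had an unadjusted p under 0.05, against 9.18% of all genes tested. Of these 8, 6 were negative and 2 positive, at a median log2 difference of -0.096. Groups that did not overlap were found for Lrpap1 alone among the 8, against 13.7% of all genes tested. For the 7 left without Jchain, each with at least 2255 counts in a library, the 95% intervals reached from -0.30 to 0.33 on the log2 scale, or 0.811-fold to 1.25-fold, so differences beyond that lay outside the interval of each of them.

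**Figure D4:**
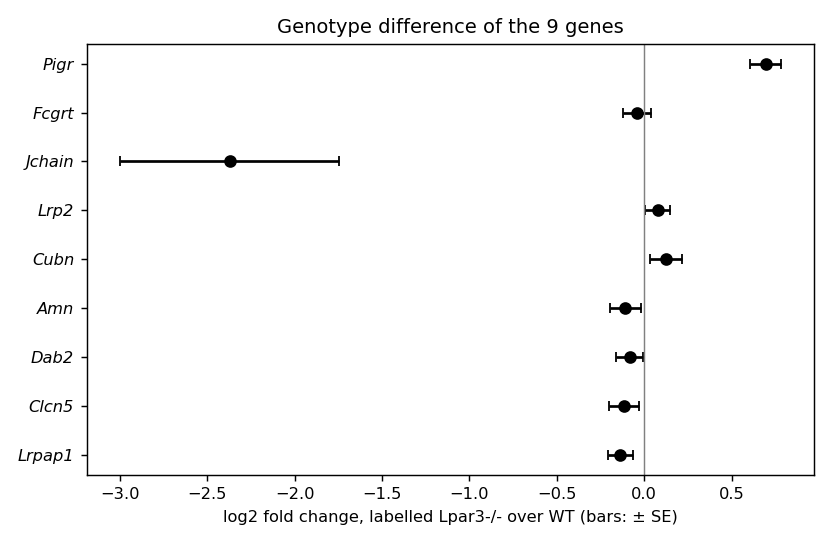
Log2 fold change of the libraries labelled Lpar3-/- over WT (horizontal axis) for each of the 9 genes, with bars of ± SE. Pigr lies at 0.69, Jchain at -2.37 with a wide bar, and the other 7 between -0.14 and 0.12.

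Set side by side within a library, on the FPKM scale, 5 ratios between partner genes were computed, of which 3 did not overlap between the groups and 2 did. The ratio of Lrp2 to Lrpap1 was 1.21 ± 0.0026 in the libraries labelled Lpar3-/- and 1.04 ± 0.0313 in WT (SD, n = 3 each), with groups that did not overlap. The ratio of Amn to Cubn was 3.87, 3.53 and 3.29 in the libraries labelled Lpar3-/-, against 4.39, 4.07 and 4.13 in WT, again without overlap. That of Dab2 to Lrp2 was 0.540, 0.565 and 0.577 in the libraries labelled Lpar3-/-, against 0.629, 0.667 and 0.582 in WT, also without overlap. The groups overlapped for Lrp2 to Cubn, at 4.77, 4.52 and 4.37 in the libraries labelled Lpar3-/-, against 5.11, 4.16 and 4.97 in WT. They overlapped for Clcn5 to Lrp2 as well, at 0.134, 0.150 and 0.124 in the libraries labelled Lpar3-/-, against 0.145, 0.163 and 0.157 in WT. Of all other genes tested, 16.7% had a ratio to Lrp2 and 13.3% a ratio to Cubn that did not overlap between the groups. The ratio of Pigr to Lrp2 was 3.04 ± 0.173 in the libraries labelled Lpar3-/- and 1.98 ± 0.163 in WT (SD, n = 3 each). The ratios among partner genes are given as values with no test, since 3 libraries against 3 allow few orderings and several pairs were looked at.

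**Figure D5:**
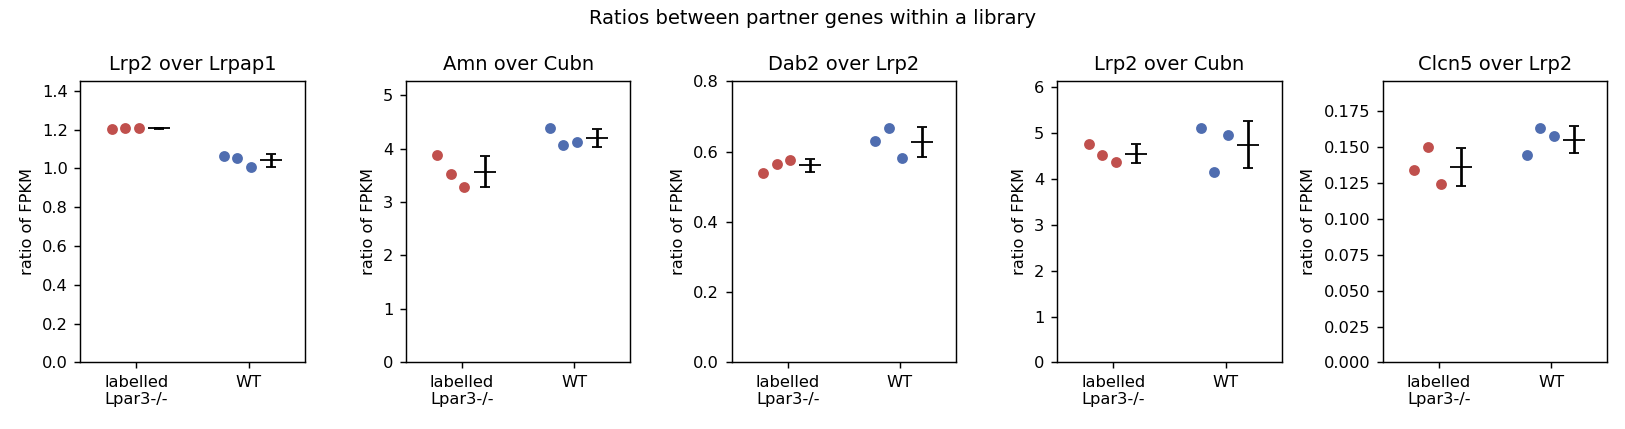
Ratio of FPKM values within a library (vertical axes, from 0) for 5 pairs of partner genes, with points for libraries and bars for the mean ± SD of 3 libraries. Lrp2 over Lrpap1 averages 1.21 in the libraries labelled Lpar3-/- and 1.04 in WT, and the groups overlap for Lrp2 over Cubn and Clcn5 over Lrp2.

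In length-corrected level, Pigr ranked first in both groups, at 309 ± 23.3 FPKM in the libraries labelled Lpar3-/- and 191 ± 19.6 FPKM in WT (SD, n = 3 each). In the libraries labelled Lpar3-/- it was followed by Lrp2 (102 FPKM), Fcgrt (97.1), Lrpap1 (84.3), Amn (79.6), Dab2 (57.0), Cubn (22.3), Clcn5 (13.8) and Jchain (0.546 FPKM). Of these neighbours, the ranges of Lrp2 and Fcgrt overlapped, as did those of Lrpap1 and Amn. In WT the order was Fcgrt (99.6 FPKM), Lrp2 (96.1), Lrpap1 (92.4), Amn (85.5), Dab2 (60.2), Cubn (20.5), Clcn5 (14.9) and Jchain (2.84 FPKM), and the ranges of Fcgrt and Lrp2, of Lrp2 and Lrpap1 and of Lrpap1 and Amn overlapped. Cubn thus stood below Amn per length in both groups, although it had more reads, being 14935 bases long against 1843 bases. Between replicates, the coefficient of variation of the 7 genes other than Pigr and Jchain was at most 13.8%, and that of Jchain was 44.5% in the libraries labelled Lpar3-/- and 90.2% in WT.

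Genes of the wider endocytic pathway were not called by edgeR, which called 0.374% of all genes tested. Among 17 partners and clathrin adaptors of the receptors edgeR, DESeq2 and limma-voom each called 0, at a median log2 difference of 0.0072. An unadjusted p under 0.05 was reached by 1 of the 17, against 9.18% of all genes tested. That gene was Slc9a3r2, a scaffold of the brush border, with 80.0 ± 6.19 CPM in the libraries labelled Lpar3-/- and 69.4 ± 3.11 CPM in WT (edgeR adjusted p = 0.392). Each of the 3 tools also called 0 of 20 endosome traffic genes and 0 of 17 genes of the vacuolar proton pump. At an unadjusted p under 0.05 stood 0 of the traffic genes and 1 of the pump genes, against 9.18% of all genes tested. That pump gene was Atp6v0a4, with 405 ± 15.3 CPM in the libraries labelled Lpar3-/- and 315 ± 65.1 CPM in WT (edgeR adjusted p = 0.350). An exon of Atp6v0a4 overlaps other genes.

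Lysosomal genes, which break the cargo down, had a median log2 fold change of -0.090, with 15 of 17 negative. Each of the 3 tools called 0. At an unadjusted p under 0.05 stood 4, against 9.18% of all genes tested. Hexa, a hexosaminidase subunit that shares an exon overlap with Tmem202, led them. It had 44.4, 44.8 and 42.1 CPM in the libraries labelled Lpar3-/-, against 54.6, 55.8 and 49.8 CPM in WT (edgeR adjusted p = 0.181). The other three were Scarb2, Ctsh and Asah1, with log2 fold changes of -0.19, -0.19 and -0.23. The list's summed level was 6492 to 6915 CPM in the libraries labelled Lpar3-/- and 6409 to 7393 CPM in WT.

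Relatives of megalin and its ligands were mixed. Of 13 tested genes of the LDL receptor family, edgeR called 0, limma-voom 0 and DESeq2 1. An unadjusted p under 0.05 was reached by 3 of them, against 9.18% of all genes tested. The gene called by DESeq2 was Lrp6, a Wnt coreceptor, with 293 ± 10.1 CPM in the libraries labelled Lpar3-/- and 240 ± 8.41 CPM in WT (edgeR adjusted p = 0.129). Sorl1 and Lrp3 had log2 fold changes of 0.27 and -0.26. Of 17 tested genes for ligands of megalin and cubilin, all 3 tools called 0, 9 were positive and 8 negative, and 8 (against 9.18% of all genes tested) had an unadjusted p under 0.05. Rbp4, the carrier of retinol, had 1.84 ± 0.514 CPM in the libraries labelled Lpar3-/- and 3.87 ± 1.06 CPM in WT (edgeR adjusted p = 0.213). In the other direction, Apoe, a lipoprotein ligand, had 447 ± 13.9 CPM in the libraries labelled Lpar3-/- and 367 ± 56.5 CPM in WT (edgeR adjusted p = 0.369). Without WT replicate 1, edgeR called Apoe at 0.41 in log2 (adjusted p = 0.0336) and Ttr, the transthyretin gene, at -0.88 (adjusted p = 0.0107).

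Levels of markers of cells outside the tubule are given beside these results. The summed level of 12 macrophage genes was 110 to 130 CPM in the libraries labelled Lpar3-/- and 131 to 202 CPM in WT, with the highest sum in WT replicate 2. Those groups were apart by a small step, at 130.3 CPM in the highest library labelled Lpar3-/- and 131.4 CPM in the lowest WT library. Of the 17 lists, 1 stood lower without overlap, 2 higher, and 14 overlapped. All 11 tested macrophage genes were negative (median log2 fold change -0.56), and Csf1r differed least, at -0.045. Adipocyte genes summed to 123 to 196 CPM in the libraries labelled Lpar3-/- and 182 to 339 CPM in WT, with overlapping groups and 6 of 6 negative. EdgeR and limma-voom called 0 of both lists, and DESeq2 called the adipocyte genes Adipoq and Plin1. An unadjusted p under 0.05 was reached by 4 macrophage and 5 adipocyte genes, against 9.18% of all genes tested. With the replicate number as a block, edgeR called the adipocyte genes Cfd, Cidec and Plin1 (adjusted p = 0.0109, 0.0233 and 0.0412), as it did without replicate 2 labelled Lpar3-/-, and without WT replicate 3 it called Cidec. With no filter it called 5 genes of each list. The 11 endothelial genes summed to 806 to 879 CPM in the libraries labelled Lpar3-/- and 830 to 886 CPM in WT, with 0 called by edgeR, DESeq2 and limma-voom. An unadjusted p under 0.05 was reached by 1 of them, Pecam1, against 9.18% of all genes tested. Dab2, Fcgrt and Lrpap1 are also expressed outside epithelium, and the part of these cells in their values was not tested.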

How the data were processed

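Poly(A)-selected kidney RNA was sequenced in 3 libraries labelled Lpar3-/- and 3 WT libraries. The authors deposited whole-number read counts per gene, not normalized, and FPKM values; tools named per the submitters' processing notes are featureCounts 1.5.0-p3, HISAT2 2.0.5 and DESeq2 1.20.0, with GRCm38. The sources used here give neither the strand setting nor the treatment of multimapping reads, so genes with overlapping exons or close paralogs are less certain. Gene lengths of the 9 genes equal their merged exons in GENCODE M21, so FPKM is per length of all exons together.

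Rows without a name (377 of 54909, 0.259% to 0.362% of counts) were left out. Counts were tested with edgeR 4.0.16 in R 4.3.3 (quasi-likelihood, TMM, default filter, 6 libraries, no covariate, Benjamini-Hochberg over all genes tested). Standard errors were taken as the log2 difference over the root of F. No library copied another (chi-square per degree of freedom 4.44 to 17.3). Promoter windows are from RefSeq (GRCm38.p6), and all 9 genes matched.

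The members and the 17 gene lists were chosen with earlier results of these data known. Named are the members, Lpar3, tissue markers, the tested genes within 500 kb of Pigr and the 5 genes most like Pigr. Those 5 had a mean CPM of at least 1, with members and predicted or clone names left out. Of each list described, called genes and up to 4 with the lowest p are named. Irf4, Cd79a, Ms4a1 and genes called in an alternative alone were named after their values were seen. Some items within this rule are not reported here. Alternatives were DESeq2 1.42.0, limma-voom 3.58.1, RLE and upper quartile normalization, no filter, a strict filter (at least 10 counts in 3 libraries, mean CPM at least 1), leaving out each library, a replicate block, and limma on FPKM of at least 0.1 on average, as log2(FPKM + 1) or log2(FPKM + 0.1). The scripts were tested on simulated data first.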

Additional observations from a re-analysis of the deposited data

How the results depend on the processing

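The log2 fold change of Pigr lay between 0.63 and 0.77 over all 15 alternatives. Pigr was chosen for this difference and its groups did not overlap, so its sign was fixed in advance and lends no support. Of the 8 other genes, 0 were called in the fits by DESeq2, limma-voom, RLE, upper quartile, the strict filter, the replicate block and both FPKM fits, and 1, Jchain, was called with no filter. Leaving out 1 library gave 0 to 1. The log2 fold change of Fcgrt lay between -0.083 and 0.032 with 1 library left out, and its sign turned without WT replicate 1.

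The 57 calls over all genes became 171 by DESeq2, 520 with no filter, 9 with log2(FPKM + 1), 13 with log2(FPKM + 0.1) and 12 to 149 with 1 library left out (12, 26 and 12 without replicates 1, 2 and 3 labelled Lpar3-/-, 149 without WT replicate 1). The 2 calls among the listed other genes became 8 by DESeq2, 34 with no filter, 1 with each FPKM fit and 1 to 9 with 1 library left out, 9 being without WT replicate 1. The cause was not tested. With the replicate number as a block, edgeR called 80 genes, 6 of the listed other genes and 0 of the 8 members other than Pigr. Deviations of same-numbered libraries correlated at 0.0026, 0.0051 and 0.051, and 4 of the 6 libraries correlated best with their own number. These values do not settle whether the numbers pair the libraries. The labels do not state that a number marks a shared litter or day, so the main fit used no pairing.

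Jchain and the antibody chains rest on few counts, so their folds are imprecise.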
